A study of Mus musculus with 25 samples.

Results

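Inflammasomes are protein complexes with which macrophages answer signs of infection or damage, and pyroptosis is the lytic cell death that they can start. Here, 9 genes of this machinery were followed, chosen by name: Nlrp3, Aim2, Nlrc4, Pycard, Casp1, Casp4, Gsdmd, P2rx7 and Nek7. They are 9 of the 24411 gene rows counted in each sample, and all 9 passed the filter on low counts that left 10612 genes for testing.

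The samples are mouse macrophages profiled by RNA-seq, 25 in all. Bone marrow-derived macrophages (BMDMs) came from C57BL/6 mice and were differentiated in 25 ng/ml M-CSF for 4 days. They form 7 groups of 3 samples. The control was kept in culture for 4 h. In 4 groups the cells had IFN-γ at 100 U/ml and LPS at 100 ng/ml, with a labelled time of 1, 4, 12 or 24 h (IFN-γ-LPS below). The labels give that time for both agents, whereas the study calls these cells IFN-γ-primed. How long before LPS the IFN-γ was added is not given in the sources used here, so each time may be that of LPS alone. The remaining BMDMs had IL-4 or IL-13 at 10 ng/ml for 12 h. RAW264.7 is a mouse macrophage line, and it was sampled as a control cultured for 4 h and after LPS alone at 100 ng/ml for 4 h, with 2 samples each. Since there is only the 4 h BMDM control, treatment and time in culture cannot be told apart at 1, 12 and 24 h. The study's methods call the BMDM libraries biological triplicates from independent RNA samples. Neither they nor the labels say whether these came from separate mice or cultures, so the p-values measure only the spread between these samples.

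The pathway works in steps. Sensor proteins recognise a danger: NLRP3 responds to disturbed ion balance and many kinds of cell stress, AIM2 binds DNA in the cytosol, and NLRC4 answers bacterial flagellin and secretion systems through its partners, the NAIP proteins. Sensors recruit the adaptor ASC, the product of Pycard, which clusters caspase-1 (Casp1), and caspase-1 matures IL-1β and IL-18 and cuts gasdermin D (Gsdmd), whose fragment forms pores in the plasma membrane. Caspase-11, the product of mouse Casp4, senses LPS inside the cell and cuts gasdermin D directly. P2RX7 is an ATP-gated ion channel that lets potassium leave the cell, and NEK7 is a kinase that binds NLRP3 and licenses its assembly. In macrophages, inflammatory signals are known to raise the transcripts of some of these parts before the complex forms, a step called priming. The counts here are of RNA. They do not measure protein, complex assembly or cell death.

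Values are CPM, sense-strand counts scaled to a common library total. They were scaled between libraries by TMM, with the ribosomal precursor Rn45s left out. Over the 25 libraries, 2378640 to 3357300 counts fell on genes (median 2718850), of which Rn45s took 20.1% to 39.8%. A gene was called higher or lower when edgeR's quasi-likelihood test gave an adjusted p of at most 0.01 after Benjamini-Hochberg adjustment over all genes tested. Macrophage markers were abundant in BMDMs (summed CPM of 7 markers, 16796 to 31256) and lower in RAW264.7 (6396 to 7502), where 1 of the 7, Mertk, was at 0. T cell markers were at 0 in all libraries. The TMM factors of the 4 h libraries were the lowest. With plain library totals in place of TMM, a choice made after seeing the data, the median log2 change of all genes against control shifted from -0.09 to -0.66 at 4 h, and the share of calls that were higher fell from 52.1% to 23.3%. That share moved from 58.8% to 34.5% at 1 h, from 51.8% to 29.8% at 12 h, from 52.1% to 34.8% at 24 h and from 48.1% to 32.3% in RAW264.7 with LPS. In these bulk samples, fewer cells that express a gene and less RNA per cell cannot be told apart.

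Promoter sequence is shown for 3 of the genes: Nlrp3 and Casp4, which rose the most after IFN-γ-LPS, and Pycard, which had no counts in RAW264.7. Each stretch is the 250 bases before a RefSeq transcription start (GRCm38.p6, the mm10 build), written on the strand of the gene. RefSeq promoters were matched for 8 of the 9 genes, at 11 starts. No entry was matched for Gsdmd. Capitals mark matches to the NF-kB consensus on either strand. The Nlrp3 promoter shown lies at chr11:59541319-59541568 (+), the Casp4 promoter shown at chr9:5308599-5308848 (+) and the Pycard promoter at chr7:127993868-127994117 (-).
Nlrp3: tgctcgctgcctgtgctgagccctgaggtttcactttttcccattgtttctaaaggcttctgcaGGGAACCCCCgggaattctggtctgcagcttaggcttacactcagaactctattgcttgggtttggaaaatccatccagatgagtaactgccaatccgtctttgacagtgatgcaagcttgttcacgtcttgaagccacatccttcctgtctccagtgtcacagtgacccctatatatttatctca
Casp4: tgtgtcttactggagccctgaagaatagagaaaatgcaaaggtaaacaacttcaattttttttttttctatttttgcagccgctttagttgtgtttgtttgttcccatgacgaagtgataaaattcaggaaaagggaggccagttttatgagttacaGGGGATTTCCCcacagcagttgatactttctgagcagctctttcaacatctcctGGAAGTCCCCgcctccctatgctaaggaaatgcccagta
Pycard: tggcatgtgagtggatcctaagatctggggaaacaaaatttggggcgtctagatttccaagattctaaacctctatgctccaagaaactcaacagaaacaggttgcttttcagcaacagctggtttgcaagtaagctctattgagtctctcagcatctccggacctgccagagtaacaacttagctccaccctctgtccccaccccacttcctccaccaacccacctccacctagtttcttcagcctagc
In the Nlrp3 stretch, the match starts 186 bases before the start. In Casp4, overlapping matches begin 93 and 92 bases before the start, and another begins 39 bases before it. The consensus was in 3 of the 11 promoters, those of 2 genes, Nlrp3 and Casp4. The Casp4 stretches (chr9:5308599-5308848 and chr9:5308610-5308859) overlap and hold the same sites, which are thus counted in both. Another Nlrp3 stretch, at chr11:59542436-59542685, held no match. Of all 32851 promoter stretches of the same length, 7.25% held the consensus. It was chosen after these promoters had been read. A narrower NF-kB string (0.356% of all promoters), the interferon response core (2.98%) and the STAT core TTCNNNGAA (7.02%) were searched first on both strands, and none of them was found in the 11 windows. A match is a description of sequence only.

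Among the sensors, Nlrp3 had the steepest rise of the 9 genes. The gene spans chr11:59541568-59566956 (mm10). Its level in control BMDMs was 14.0, 10.3 and 13.4 CPM. After 1 h of IFN-γ-LPS it was 465, 442 and 485 CPM, and after 4 h it was 554, 508 and 555 CPM. Every treated library was thus far above every control library, already at the earliest time sampled. The fold was 36.7 at 1 h (log2 change 5.20, SE 0.13, n = 3 against 3) and 42.6 at 4 h (log2 change 5.41, SE 0.13). At 12 h the libraries held 204, 194 and 173 CPM, and at 24 h they held 191, 177 and 160 CPM. Levels at these later times stayed between those of the control and the 4 h peak, at 15.1-fold and 13.9-fold of control. From 1 to 4 h the difference was not called (log2 change 0.22, adjusted p = 0.0384), though it was without 12 h replicate 3 (0.00994), and with plain library totals its sign was the opposite (-0.15). From 4 to 12 h Nlrp3 fell by 1.5 on the log2 scale (SE 0.09), while the step from 12 to 24 h was not called (-0.12, SE 0.10, adjusted p = 0.456).

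Aim2 followed a similar course on a smaller scale, with a sharper peak. Control libraries held 38.7, 31.0 and 36.5 CPM, and the 4 h libraries 211, 233 and 230 CPM. At 4 h the groups were far apart, 6.34-fold (log2 change 2.66, SE 0.13), against 2.37-fold at 1 h, 2.51-fold at 12 h and 1.68-fold at 24 h, all called higher. Each step of its time course was called, with a rise of 1.42 on the log2 scale from 1 to 4 h (SE 0.12) and falls by 1.33 (SE 0.12) and 0.58 (SE 0.13) at the steps that followed.

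Nlrc4, at low counts, had its lowest IFN-γ-LPS levels at 4 h, where the other sensors peaked. It was 18.8, 18.5 and 15 CPM in control, 10.6, 14.8 and 7.40 CPM at 4 h and 30.7, 37.8 and 35.4 CPM at 12 h. The 4 h libraries lay below all controls, on 9 to 19 counts each, but the difference was not called (log2 change -0.66, SE 0.27, adjusted p = 0.0321 by edgeR's quasi-likelihood test). Both steps around 4 h were called: -1.29 from 1 to 4 h (SE 0.25) and 1.64 from 4 to 12 h (SE 0.24). Against control, Nlrc4 was called higher at 12 h (1.98-fold) and 24 h (1.61-fold). At 24 h the call was lost by DESeq2 (adjusted p = 0.027), with plain library totals (0.044) and when control replicate 3 (0.0204) or 24 h replicate 3 (0.0253) was left out. At 1 h it was not called (log2 change 0.63, adjusted p = 0.0124), though it was without 1 h replicate 1 (0.00723).

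**Figure D1:**
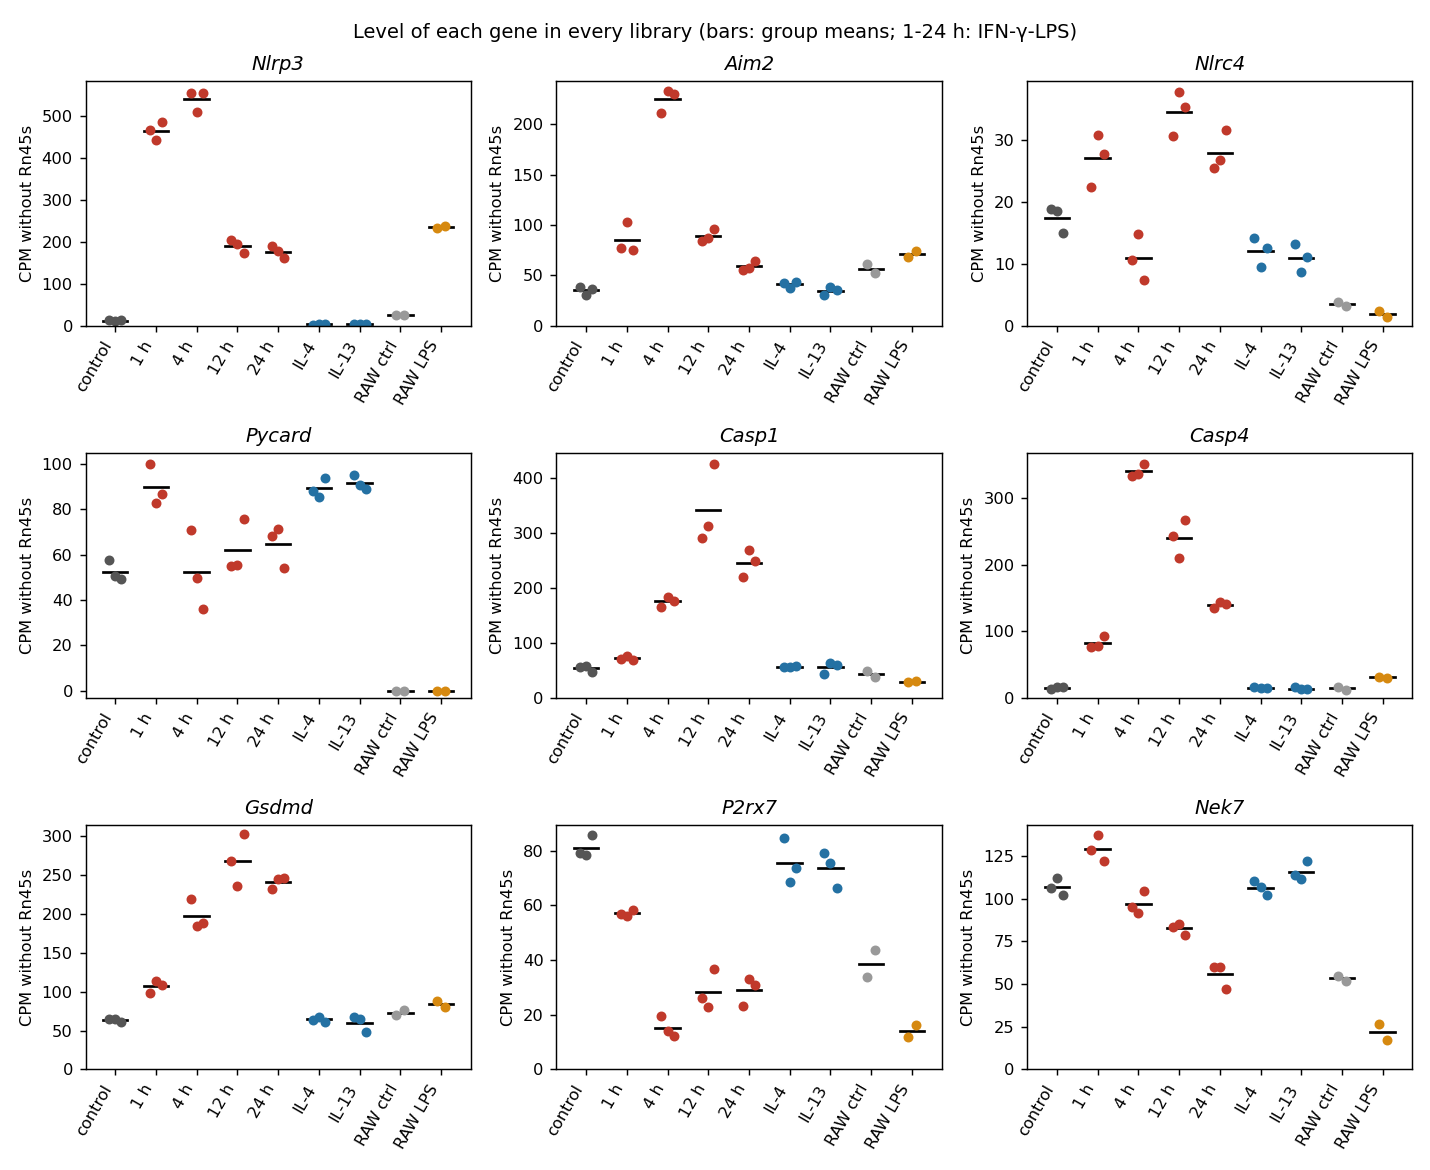
Level of each of the 9 genes in all 25 libraries, in CPM without Rn45s on a linear axis, with 1 point per library and a bar at each group mean. The IFN-γ-LPS points of Nlrp3, Aim2 and Casp4 are highest at 4 h, those of Casp1 and Gsdmd at 12 h, and Pycard lies at 0 in the 4 RAW264.7 libraries.

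The adaptor gene Pycard (chr7:127989708-127993867, mm10) changed briefly. Control libraries held 57.6, 50.6 and 49.3 CPM, and the 1 h libraries 99.8, 82.5 and 86.7 CPM. All 1 h libraries were above all controls, and Pycard was called 1.71-fold higher (log2 change 0.77, SE 0.14). At 4 h the libraries spread widely, from 36.2 to 71.0 CPM, and overlapped the control (log2 change -0.02, SE 0.17). The 1 to 4 h step was called (-0.79, SE 0.16). At 12 h and 24 h the log2 changes against control were 0.24 (adjusted p = 0.182) and 0.29 (adjusted p = 0.0916), with libraries that overlapped those of the control.

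Casp1 and Casp4 are neighbours on chromosome 9, on the same strand, with 1562 bases between them (Casp1 at chr9:5298517-5307265 and Casp4 at chr9:5308828-5336783). Both rose after IFN-γ-LPS, at different speeds. Casp4 was 12.9, 16.3 and 15.5 CPM in control, 75.7, 78.0 and 93.3 CPM at 1 h and 334, 336 and 351 CPM at 4 h. Its groups never overlapped, and the fold was 5.52 at 1 h, 22.7 at 4 h (log2 change 4.5, SE 0.14), 16 at 12 h and 9.33 at 24 h. Casp1 was 55.4, 57.7 and 47.2 CPM in control and 69.5, 76.1 and 67.9 CPM at 1 h, a difference that was not called (log2 change 0.41, SE 0.15, adjusted p = 0.0218), although it was without 12 h replicate 3 (adjusted p = 0.01). It then reached 165, 184 and 176 CPM at 4 h and 289, 311 and 425 CPM at 12 h. The 12 h libraries lay above all others, 6.40-fold over control (log2 change 2.68, SE 0.13), with replicate 3 highest. From 4 to 12 h, Casp1 rose by 0.97 on the log2 scale (SE 0.11) while Casp4 fell by 0.50 (SE 0.10). With plain library totals the Casp4 step was -0.27 and was not called (adjusted p = 0.0162). Both were lower at 24 h than at 12 h, by 0.48 (SE 0.11) for Casp1 and by 0.78 (SE 0.10) for Casp4. Without 12 h replicate 3, the highest Casp1 library, the Casp1 difference was -0.29 and was not called (adjusted p = 0.0336).

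Gsdmd, the gene of the pore protein, rose with a course like that of Casp1. Its level was 65.1, 64.7 and 61.7 CPM in control, 220, 184 and 189 CPM at 4 h and 268, 236 and 302 CPM at 12 h. No treated library overlapped a control library. It was called higher at each time: 1.67-fold at 1 h, 3.09-fold at 4 h, 4.21-fold at 12 h (log2 change 2.07, SE 0.11) and 3.78-fold at 24 h. Its step from 4 to 12 h (0.45, SE 0.10) lost its call without 12 h replicate 3 (0.33, adjusted p = 0.01005). The 12 h to 24 h step was not called (-0.15, SE 0.10, adjusted p = 0.294).

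P2rx7 fell at every time, and Nek7 at the later ones. P2rx7 was 79.1, 78.3 and 85.8 CPM in control, 56.6, 56.1 and 58.3 CPM at 1 h and 19.5, 14.0 and 12.3 CPM at 4 h. All treated libraries lay below all controls. It was 5.33-fold lower at 4 h (log2 change -2.41, SE 0.19), then rose by 0.91 on the log2 scale from 4 to 12 h (SE 0.24) and stayed below control at 24 h (log2 change -1.48, SE 0.15). That rise was not called without 4 h replicate 3 (0.77, adjusted p = 0.0165) or 12 h replicate 3 (0.67, adjusted p = 0.0327). The smaller decrease at 1 h (-0.51, SE 0.14, adjusted p = 0.00225) missed the threshold with DESeq2 (0.0101) and without control replicate 3 (0.0161) or 1 h replicate 1 (0.0104). Nek7 was 107, 112 and 102 CPM in control and 59.8, 60.3 and 46.8 CPM at 24 h. Those groups did not overlap, and the log2 change was -0.95 (SE 0.12). Its decrease from 12 to 24 h (-0.58, SE 0.13) was not called without 24 h replicate 3 (-0.46, adjusted p = 0.013), nor that from 1 to 4 h (-0.41, SE 0.12) without 1 h replicate 2, 4 h replicate 1 or 4 h replicate 2 (0.0191 to 0.0228). The earlier 12 h decrease was close to the threshold (-0.37, SE 0.12, adjusted p = 0.00556), and the call was lost without a filter on low counts (0.0183) and when any 1 of the 6 control and 12 h libraries was left out (0.0107 to 0.0297). At 4 h Nek7 overlapped the control (log2 change -0.14, adjusted p = 0.324).

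**Figure D2:**
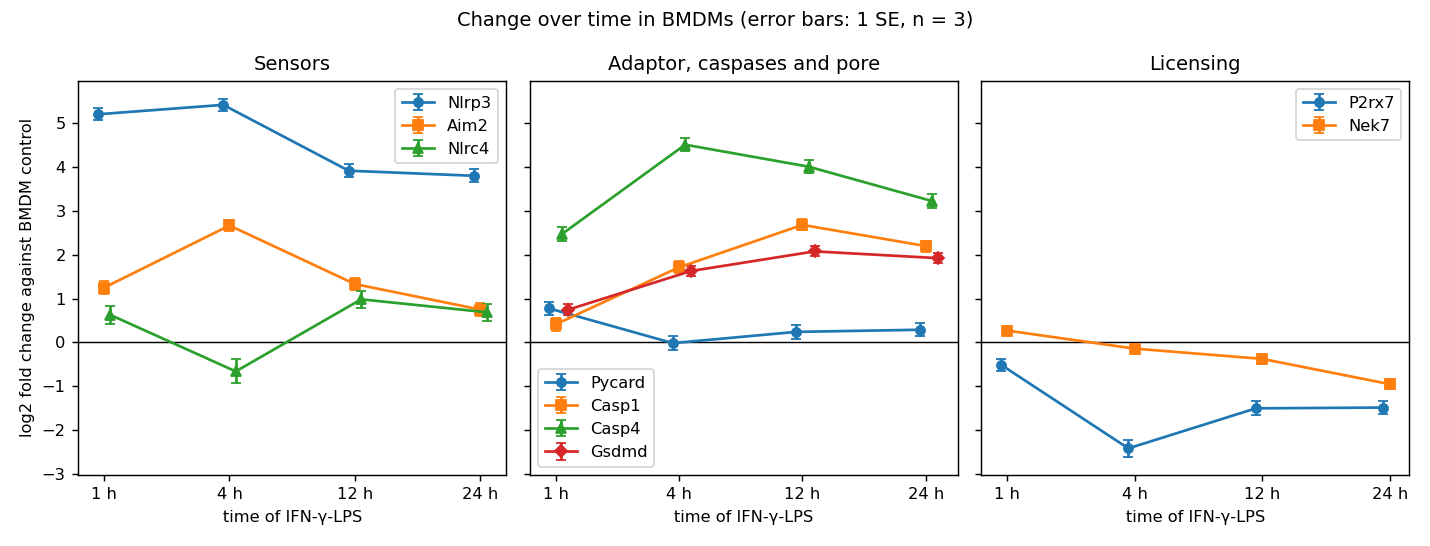
Log2 fold change of the 9 genes against control BMDMs at 1, 4, 12 and 24 h of IFN-γ-LPS, with error bars of 1 SE from edgeR's fit (n = 3 per group). Nlrp3 and Casp4 reach 5.41 and 4.5 at 4 h, Casp1 and Gsdmd reach 2.68 and 2.07 at 12 h, and P2rx7 is lowest at 4 h.

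Counted over the set, 5 of the 9 genes were called higher and 1 lower at 1 h, where 14.7% of all genes were higher and 10.3% lower (24.9% called). At 4 h the counts were 5 and 1, where 25.3% of all genes were higher and 23.2% lower (48.5% called). At both 12 h and 24 h, 6 were higher and 2 lower. Of all genes, 23.2% were higher and 21.6% lower at 12 h (44.9% called), and 22.3% were higher and 20.5% lower at 24 h (42.8% called). With the study's fold cutoff added (a log2 change of at least 1.5), 2, 6, 5 and 4 of the 9 genes were called at 1, 4, 12 and 24 h, against 7.04%, 21.9%, 17% and 14.7% of all genes. The median log2 change of the 9 genes was 0.74, 1.63, 1.33 and 0.75 at 1, 4, 12 and 24 h, and that of all genes was -0.02, -0.09, -0.02 and -0.01. Between time points, 4 genes rose and 4 fell from 1 to 4 h, where 36.3% of all genes were called (19% higher, 17.2% lower). From 4 to 12 h, 4 rose and 3 fell, where 33.4% were called (15.2% higher, 18.2% lower). From 12 to 24 h, 0 rose and 4 fell, where 13.6% were called (4.22% higher, 9.36% lower). With plain library totals, the share of all calls that were higher moved from 52.5% to 26.5%, from 45.5% to 65.5% and from 31.1% to 52.9% in these steps. The last step also crosses a difference in the share of Rn45s counts that lay on the opposite strand. That share was 0.0386% to 0.122% of Rn45s counts in the 12 control, 1, 4 and 12 h libraries. It was 0.00603% to 0.0214% in the 9 others from BMDMs, which had 24 h of IFN-γ-LPS, IL-4 or IL-13. The comparison of 24 h with control crosses this difference too. Its part in the results was not tested.

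Scaling mattered most at 4 h. With plain library totals, Nlrc4 (log2 change -1.24), Pycard (-0.60) and Nek7 (-0.72) were called lower at 4 h, beside the shift of -0.66 in the median of all genes. The genes called by TMM at 4 h kept their direction and call. The summed neutrophil markers (6 of 7 listed were in the files) were 13.1 to 22.5 CPM in control and 37.3 to 50.1 CPM at 4 h, mostly from S100a8 and S100a9, and the granule genes Mpo and Elane were at 0 in both groups. Their part in the rise of the sensors and caspases was not tested.

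IL-4 and IL-13 left most of the machinery near its control level at 12 h. With each cytokine, 1 of the 9 genes was called higher, Pycard, and 1 lower, Nlrp3. Of all genes, 6.25% were called with IL-4 (3.78% higher, 2.47% lower) and 8.33% with IL-13 (4.98% higher, 3.35% lower). Both genes also passed the study's fold cutoff for these cytokines (a log2 change of at least 0.7), as did 3.37% of all genes with IL-4 and 4.75% with IL-13. Nlrp3 was 3.15, 3.90 and 5.38 CPM with IL-4 and 4.04, 4.10 and 4.06 CPM with IL-13, on 6 to 9 counts per library. All of these lay below the control libraries, and Nlrp3 was 3.04-fold lower with IL-4 (log2 change -1.60, SE 0.29) and 3.06-fold lower with IL-13 (-1.61, SE 0.29). Pycard was 88.2, 85.3 and 93.9 CPM with IL-4 and 95.2, 90.8 and 88.8 CPM with IL-13, again without overlap with control. It was 1.70-fold higher with IL-4 (log2 change 0.76, SE 0.14) and 1.74-fold higher with IL-13 (0.80, SE 0.14). Nlrc4 lay below all controls with both cytokines without being called (log2 change -0.53, adjusted p = 0.173, and -0.67, adjusted p = 0.0567). For Casp1, Casp4, Gsdmd, P2rx7, Nek7 and Aim2, libraries overlapped the control, and the largest log2 difference was 0.21, for Aim2 with IL-4 (95% interval -0.12 to 0.54).

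The IL-4 and IL-13 libraries shared the control and the lower Rn45s opposite-strand share given above, which cannot be told apart from the treatment. Itgax, on the dendritic cell list, rose from 154 CPM in control to 296 CPM with IL-4 and 371 CPM with IL-13, while the group means of Flt3 and Zbtb46 stayed under 1 CPM. The summed list was 132 to 166 CPM in control, 250 to 345 CPM with IL-4 and 269 to 445 CPM with IL-13, and its part in the Pycard and Nlrp3 differences was not tested. Between the cytokines themselves, edgeR called 0 of the 9 genes, DESeq2 called 0 (it gave no adjusted p for 6 of them), and 0 had an unadjusted p under 0.05, where 0.0754% of all genes were called, all of them higher with IL-13. The log2 differences of IL-13 minus IL-4 ran from -0.23 for Aim2 (95% interval -0.56 to 0.11) to 0.12 for Nek7 (-0.12 to 0.36), with Nlrc4, Casp4, Gsdmd, P2rx7, Casp1 and Pycard between -0.14 and 0.04. For Nlrp3 the interval was wide, from -0.81 to 0.79.

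**Figure D3:**
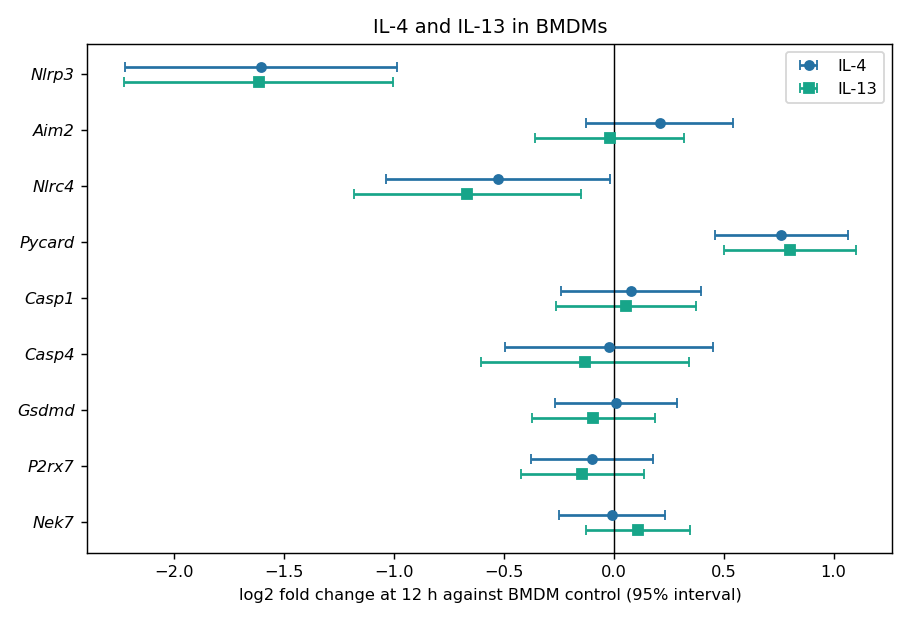
Log2 fold change of the 9 genes at 12 h of IL-4 or IL-13 against control BMDMs, with 95% intervals (n = 3 per group). Nlrp3 lies at -1.60 and -1.61, Pycard lies at 0.76 and 0.80, and Nlrc4 lies below 0 without being called after adjustment. The intervals of Aim2, Casp1, Casp4, Gsdmd, P2rx7 and Nek7 cross 0.

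At the same time of 12 h, IFN-γ-LPS differed from each cytokine in all 9 genes, 6 higher and 3 lower in both comparisons, where 41% of all genes were called in each (21.1% higher and 19.9% lower against IL-4, 21% and 20% against IL-13). With plain totals, the share of all calls that were higher moved from 51.5% to 29.6% against IL-4 and from 51.3% to 28.0% against IL-13. Nlrp3 was 45.7-fold higher than with IL-4 and 46.1-fold higher than with IL-13, and Casp4 was 16.3-fold and 17.6-fold higher. Pycard was lower with IFN-γ-LPS, by 0.52 (SE 0.14) and 0.56 (SE 0.14) on the log2 scale. P2rx7 and Nek7 were lower too, P2rx7 by 1.40 (SE 0.16) and 1.36 (SE 0.16). Casp1 (2.60 and 2.62), Gsdmd (2.06 and 2.17), Nlrc4 (1.51 and 1.65) and Aim2 (1.12 and 1.35) were higher on the log2 scale against IL-4 and IL-13. The Pycard call against IL-4 was lost without 12 h IFN-γ-LPS replicate 1 (adjusted p = 0.0182) or 2 (0.0211), and that against IL-13 without replicate 2 (0.0109). The Nek7 difference from IL-4 (-0.37, adjusted p = 0.00711) was not called by DESeq2 (0.0112), without the filter (0.0214), without any 1 of the 12 h IFN-γ-LPS replicates, or without IL-4 replicate 1 or 2, control replicate 3 or 4 h replicate 3 (0.0109 to 0.036). The comparisons with IL-4 and with IL-13 share the IFN-γ-LPS libraries. Both also cross the difference in the Rn45s opposite-strand share given above, whose part in them was not tested.

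RAW264.7 cells are known to lack ASC, and Pycard was counted 0 times in each of the 4 libraries, 2 control and 2 with LPS. A count of 0 over both control libraries allows up to 3 counts, or 0.533 CPM, so Pycard was at least 98.5-fold lower than in control BMDMs, where it held 92 to 107 counts per library. The LPS libraries allow up to 0.557 CPM, at least 93.9-fold below BMDMs at 4 h of IFN-γ-LPS. This floor covers counting error only. No change with LPS can be given for Pycard in this line.

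Some of the other genes differed between the resting cells as well, as did most genes tested. Against control BMDMs, 2 of the 9 genes were called higher and 4 lower in RAW264.7 control cells, where 65.6% of all genes were called (31.9% higher, 33.7% lower). Nlrp3 was 25.7 and 25.8 CPM, 2.04-fold above BMDMs (log2 difference 1.03, SE 0.20), and Aim2 was 60.9 and 52.3 CPM, 1.60-fold above. Nlrc4 was 3.83 and 3.27 CPM on 9 to 11 counts, 4.84-fold lower (-2.27, SE 0.32), P2rx7 was 2.10-fold lower and Nek7 was 2-fold lower. Casp1 (-0.31, adjusted p = 0.0824), Casp4 (-0.07, adjusted p = 0.791) and Gsdmd (0.19, adjusted p = 0.203) were not called. With plain library totals Gsdmd was called higher (0.44, adjusted p = 0.0024), where the median of all genes shifted from -0.06 to 0.18 and the share of calls that were higher from 48.6% to 57.7%. The line also differs from BMDMs in origin and medium, and fibroblast markers, 70.2 to 103 CPM in summed level in control BMDMs, were at 0 in RAW264.7. The Rn45s opposite-strand share was 0.0199% to 0.0283% in RAW264.7, below that of the control BMDM libraries. The part of these traits in the differences was not tested.

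LPS alone for 4 h raised Nlrp3 and Casp4 in RAW264.7 and lowered P2rx7 and Nek7, which makes 2 higher and 2 lower of the 8 genes tested, where 18.5% of all genes were called (8.9% higher, 9.61% lower). With the study's fold cutoff (a log2 change of at least 2), Nlrp3 was called, as were 3% of all genes. Nlrp3 went from 25.7 and 25.8 CPM to 233 and 238 CPM, 9.13-fold (log2 change 3.19, SE 0.14, n = 2 against 2). Casp4 went from 16.7 and 11.6 CPM to 31.5 and 29.2 CPM, 2.13-fold (1.09, SE 0.20). Neither gene's groups overlapped. P2rx7 fell from 33.7 and 43.6 CPM to 12.0 and 16.3 CPM (-1.43, SE 0.21), and Nek7 from 55.0 and 52.0 CPM to 26.3 and 17 CPM (-1.32, SE 0.17). Casp1 was 49.1 and 37.1 CPM before and 27.9 and 29.5 CPM after LPS. Those values did not overlap, and the difference just missed the threshold (-0.58, SE 0.19, adjusted p = 0.0132). It passed in 7 of the other settings, among them a fit of the RAW264.7 groups alone (adjusted p = 0.00376), library totals (0.00104) and the replicate number as a block (0.00998). Aim2 (0.34, adjusted p = 0.0779) and Gsdmd (0.21, adjusted p = 0.277) were not called, and Nlrc4 was at 4 to 6 counts with LPS.

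The changes at 4 h were compared between the cells as a difference of differences, with the reservation that BMDMs had IFN-γ with LPS and RAW264.7 had LPS alone, so cell and stimulus cannot be told apart. Of 8 genes, 6 had a log2 change that was lower in RAW264.7 than in BMDMs and 1, P2rx7, had one that was higher, that is, less negative, where 9.75% of all genes were higher and 15.3% lower (25% called). The gap was widest for Casp4 (log2 difference -3.42, SE 0.27), followed by Aim2 (-2.33, SE 0.20), Casp1 (-2.29, SE 0.23), Nlrp3 (-2.22, SE 0.22), Gsdmd (-1.42, SE 0.18) and Nek7 (-1.17, SE 0.21). P2rx7 fell less in RAW264.7 (0.98, SE 0.31, adjusted p = 0.00897), a call that DESeq2 did not make (adjusted p = 0.017). It was also lost without the filter (0.0112), with unstranded counts (0.0134) and without control replicate 1 or 3, BMDM 4 h replicate 2 or 3, RAW264.7 control replicate 1 or RAW264.7 LPS replicate 2 (0.0105 to 0.158). Nlrc4 was not called (-0.25, SE 0.57, adjusted p = 0.808). With plain totals, the 6 lower differences kept their direction and call, the median of all genes moved from 0.03 to 0.47, and the share of calls that were higher moved from 39% to 70.1%.

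**Figure D4:**
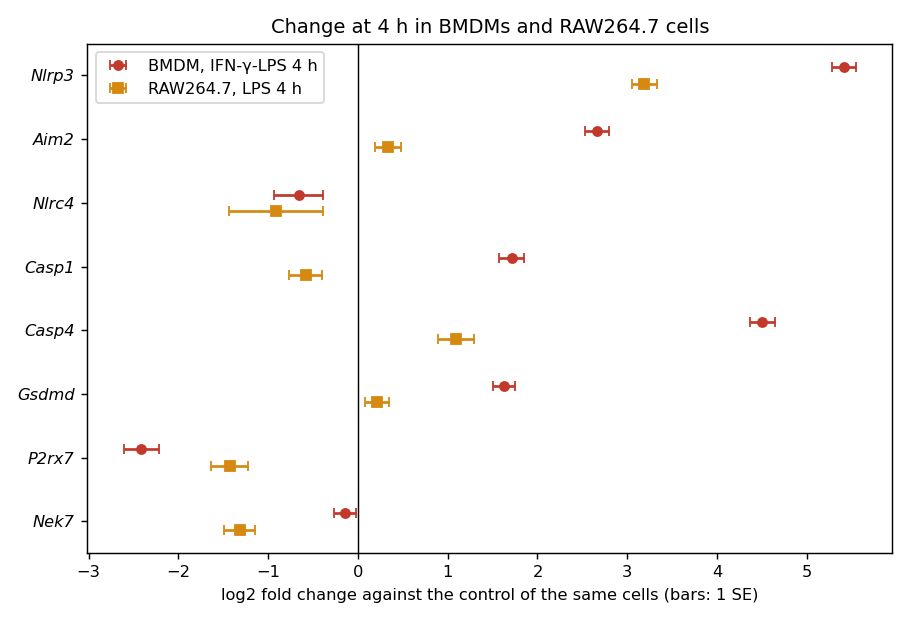
Log2 fold change at 4 h against the control of the same cells for the 8 genes with counts in both, in BMDMs (IFN-γ-LPS, n = 3 against 3) and RAW264.7 (LPS, n = 2 against 2), with bars of 1 SE. Nlrp3 is at 5.41 and 3.19, Casp1 is at 1.71 and -0.58, and P2rx7 is below 0 in both.

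Per kilobase of exon (union of GENCODE M21 exons, which makes no allowance for which isoform is used), the genes could be ranked within a condition. The ranks depend on these union lengths. The length was 3.8 kb for Pycard and 1.497 kb for Casp1. For Pycard it covers nearly the whole gene span (chr7:127989708-127993867). A length that takes in introns lowers the value per kb, so the rank of Pycard is uncertain. Before division, the control BMDM means of Pycard and Casp1 were 52.5 and 53.4 CPM. In control BMDMs, Casp1 (35.7 CPM per kb) and Gsdmd (26.9) had the highest mean levels, Nek7, Pycard and P2rx7 lay from 13.6 to 14.5, Aim2 was at 10.1, and Casp4, Nlrc4 and Nlrp3 were lowest, from 3.10 to 4.02. At 4 h of IFN-γ-LPS Nlrp3 was the highest (133 CPM per kb), followed by Casp1 (117), Casp4 (91.7), Gsdmd (83.2) and Aim2 (64.2). Nek7 (13.2), P2rx7 (2.56) and Nlrc4 (2.28) were far below. Pycard was at 13.8 on its union length, from 52.3 CPM before division. In RAW264.7 with LPS, Nlrp3 (58.1) and Gsdmd (35.4) stood above Aim2 (20.4) and Casp1 (19.2), and Pycard was at 0.

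The order of the conditions differed by gene. Nlrp3 ran from BMDMs at 4 h and 1 h of IFN-γ-LPS, through RAW264.7 with LPS, to 12 h and 24 h, whose libraries overlapped, and then to RAW264.7 control, BMDM control and the overlapping pair of IL-4 and IL-13. For Pycard, IL-13, 1 h of IFN-γ-LPS and IL-4 came first and overlapped one another, and 24 h, 12 h, control and 4 h formed an overlapping row below. For P2rx7, control, IL-4 and IL-13 were highest and overlapped, and 4 h of IFN-γ-LPS and RAW264.7 with LPS were lowest and overlapped. Nek7 was highest at 1 h of IFN-γ-LPS (128, 137 and 122 CPM), although the difference from control was not called (log2 change 0.27, adjusted p = 0.0515).

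Another 67 gene symbols of the pathway, from receptors to membrane repair, were listed by role, of which 66 were in the files and 59 were tested. The absent symbol, Gsdme, names the same gene as the older symbol Dfna5, which was counted. At 4 h of IFN-γ-LPS, 37 were called higher (62.7% of the 59, against 25.3% of all genes) and 11 lower (18.6% against 23.2%). Of the immunity GTPases and transcription factors that act upstream, 9 of 9 were higher at this time. Among them, Gbp5, a guanylate-binding protein that promotes NLRP3 assembly, went from 1.62 to 6130 CPM, and Irf2, a factor known to drive Gsdmd, rose by 1.93 on the log2 scale (SE 0.12). Irf8, of the same list, was called lower at 1, 12 and 24 h (log2 change -0.40, -1.18 and -0.68). Members of the Gbp and Naip families resemble one another, so reads shared between copies could be miscounted.

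The substrates came next, with 7 of 9 higher and 1 lower. Il1a, an IL-1 family cytokine, went from 1.61 to 6821 CPM, and Hmgb1, an alarmin released by dying cells, fell by 0.48 on the log2 scale (SE 0.12). All 4 brakes tested were higher, from Il18bp, which binds IL-18 (3.84, SE 0.17), to Il1rn, the IL-1 receptor antagonist (7.33, SE 0.20). Of the priming receptors, 7 of 10 were higher and 1 lower. Cd14, the LPS co-receptor, rose by 3.94 (SE 0.10) and Tlr4, the LPS receptor, fell by 1.25 (SE 0.14). Of the other sensors, 2 of 7 were higher, with Mefv, the gene of pyrin, at 4.48 (SE 0.22), and 3 were lower, with Nlrp1b at -3.15 (SE 0.27). Genes of ion flux and licensing were mixed, 2 of 11 higher and 5 lower. Kcnk6, a potassium channel, fell by 2.18 (SE 0.31). In the ESCRT-III list, which reseals membranes, 6 of 9 were higher, with Chmp4b at 1.77 (SE 0.12), and 1 was lower.

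**Figure D5:**
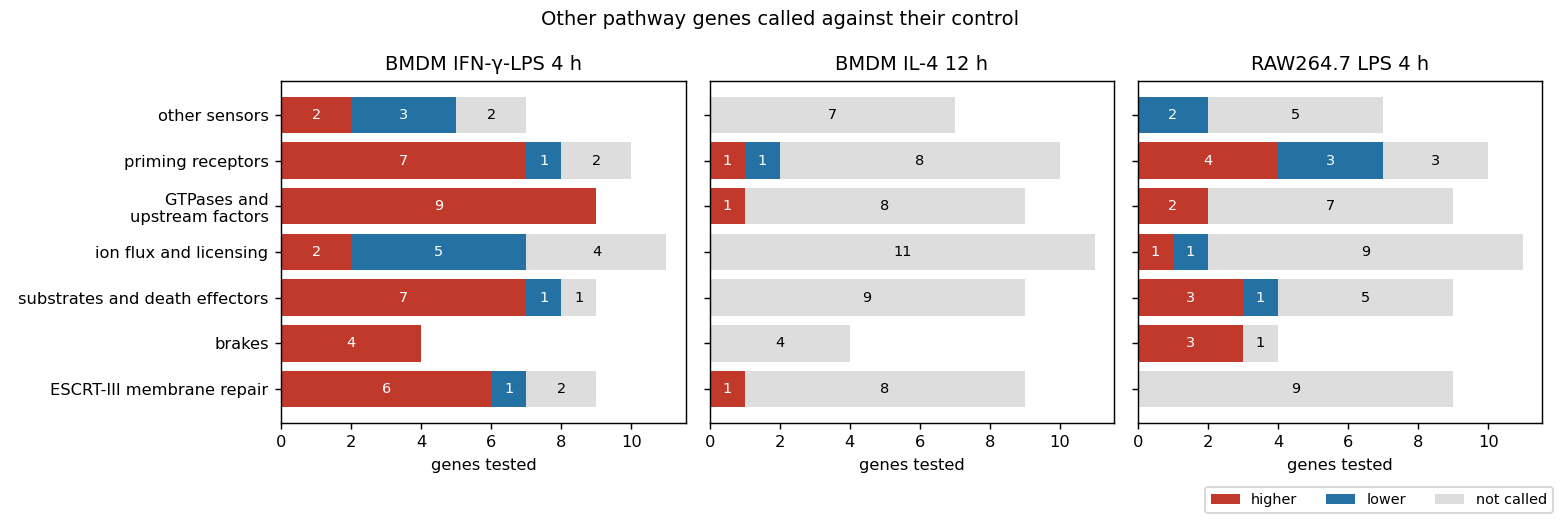
Number of other pathway genes called higher, lower or not called against their own control, by role, for BMDMs at 4 h of IFN-γ-LPS, BMDMs at 12 h of IL-4 and RAW264.7 at 4 h of LPS. The upstream GTPases and factors are 9 of 9 higher in BMDMs at 4 h, 1 of 9 with IL-4 and 2 of 9 in RAW264.7.

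At 24 h the same list had 31 genes higher (52.5%, against 22.3% of all genes) and 9 lower (15.3% against 20.5%). Il1b led the substrates, from 2.52 to 3811 CPM, while Irf8, a transcription factor, was below control (-0.68, SE 0.12). With IL-4, 3 genes of the 59 were higher (5.08%, against 3.78% of all genes) and 1 lower (1.69% against 2.47%). With IL-13, 5 were higher (8.47% against 4.98%) and 3 lower (5.08% against 3.35%). Cd14 was lower with both (-1.88, SE 0.11, and -1.90, SE 0.11), and Irf1 was higher with both (0.86, SE 0.13, and 0.91, SE 0.12). Between the cytokines, edgeR called 0 of the 59, with 5 at an unadjusted p under 0.05, and DESeq2 called 0.

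In RAW264.7 with LPS, 13 of the 59 were called higher (22.0%, against 8.9% of all genes) and 7 lower (11.9% against 9.61%). The substrates included Il1a, with 0 counts in both control libraries and 1740 CPM after LPS. Of the upstream factors, 2 of 9 were called higher, Irgm1 (2.07, SE 0.13) and Irf8 (0.76, SE 0.17). The other 7 were not called. Among them were GTPases on few counts: Gbp5 was at 0.537 CPM before and 2.51 CPM after LPS, Gbp2 at 0.174 and 1.49 CPM, and Gbp3 at 0.174 and 1.44 CPM. The log2 change of 23 of the 59 genes (39.0%) was lower than in BMDMs at 4 h and that of 3 (5.08%) was higher, against 15.3% and 9.75% of all genes.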

How the data were processed

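RNA-seq of 25 mouse macrophage samples was analysed (BMDMs, 7 groups of 3, and RAW264.7, 2 groups of 2), grouped by the sample labels. According to the submitters' processing notes, CASAVA 1.8.2, Trimmomatic 0.33, STAR 2.5.1 and DESeq2 were used with mm10. The annotation release is not given in the sources used here. Per gene, the authors deposited read counts, whole and not normalized, unstranded and for each strand. The sense column, 93.9 to 158 times the antisense one in total, was analysed here, from stranded libraries whose protocol begins with removal of ribosomal RNA, although the labels give the molecule as polyA RNA.

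Rn45s was left out, which left 1502620 to 2532500 counts per library, so that 3 counts are 1.04 to 2.66 CPM. In R 4.3.3, edgeR 4.0.16 fitted 9 group means to all 25 samples (filterByExpr, TMM, robust quasi-likelihood, 16 residual degrees of freedom). The Benjamini-Hochberg adjustment was per comparison, and SE is the absolute log2 change over the square root of F. DESeq2 1.42.0, RLE size factors, other filters, unstranded counts, Rn45s kept, fits of fewer groups, the replicate block and leaving out each sample were alternatives. Scripts were tested on simulated data. Python 3.11.15 and matplotlib 3.10.9 read the promoters and drew the figures. Replicate pairs differed by more than sampling noise (chi-square per degree of freedom 1.30 to 4.53, 23 pairs).

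The members, lists and tests were chosen with earlier results of these data known. All 9 members were tested in each comparison, except Pycard within RAW264.7, where it had no counts. From the wider list, the called genes with the smallest and largest change per role could be named. Gbp5, Gbp2 and Gbp3 in RAW264.7 lie outside this rule, and Gbp5 was added after its values were seen. Patterns were compared by Pearson's r over the 9 condition means of log2 CPM (prior count 2). A few genes that this rule would name are not reported here.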

Additional observations from a re-analysis of the deposited data

Results flagged for a closer look

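Time points of IFN-γ-LPS differed from each other under the shared control, by edgeR's quasi-likelihood test of the step itself. From 1 to 4 h the log2 steps were 1.42 for Aim2, -1.29 for Nlrc4, -0.79 for Pycard, 1.30 for Casp1, 2.04 for Casp4, 0.88 for Gsdmd, -1.91 for P2rx7 and -0.41 for Nek7. From 4 to 12 h they were -1.50 for Nlrp3, -1.33 for Aim2, 1.64 for Nlrc4, 0.97 for Casp1, -0.50 for Casp4, 0.45 for Gsdmd and 0.91 for P2rx7. With plain library totals the Casp4 step was -0.27 (adjusted p = 0.0162), and the other steps from 1 to 4 h and from 4 to 12 h kept their call. From 12 to 24 h they were -0.58 for Aim2, -0.48 for Casp1, -0.78 for Casp4 and -0.58 for Nek7, and these 4 kept their call with plain totals.

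The change with LPS in RAW264.7 differed from that with IFN-γ-LPS in BMDMs at 4 h, by a test of the difference of the changes. The log2 differences were -2.22 for Nlrp3, -2.33 for Aim2, -2.29 for Casp1, -3.42 for Casp4, -1.42 for Gsdmd, 0.98 for P2rx7 and -1.17 for Nek7.

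Pycard had counts on the opposite strand in RAW264.7, where the gene's own strand had 0: 9 in the 2 control libraries and 8 in the 2 LPS libraries, against 4 in the 3 BMDM control libraries and 2 to 6 in the other BMDM groups. By library they were 7 and 2 in RAW264.7 control, 1 and 7 with LPS, and 0 to 4 in BMDMs.  No group had 4 or more samples, so single libraries were not tested for standing apart.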

How the results depend on the processing

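With the fold cutoffs of the study added (log2 change of 1.5 for IFN-γ-LPS and 2 for RAW264.7), the number of the 9 genes called was 2 at 1 h, 5 at 12 h and 4 at 24 h, and 1 for LPS in RAW264.7. Requiring 10 counts in every sample left 6 of the 9 genes and gave 0 calls with IL-4, 0 with IL-13 and 3 for RAW264.7 against BMDM control, since Nlrp3, Nlrc4 and Pycard were no longer tested. Leaving out each sample in turn, the calls numbered between 5 and 7 for 1 h, always 6 for 4 h, between 7 and 8 for both 12 h and 24 h, 2 with IL-4 and IL-13, between 4 and 5 with LPS in RAW264.7 and 6 for RAW264.7 against BMDM control. For the other comparisons they numbered between 7 and 9 from 1 to 4 h, 5 and 7 from 4 to 12 h, 3 and 4 from 12 to 24 h, 7 and 9 for IFN-γ-LPS against IL-4, 8 and 9 against IL-13, and 6 and 7 for the difference between RAW264.7 and BMDMs. A few differences that were not called changed sign, and the cause was not tested. Pycard at 4 h was 0.0061 without the filter and 0.0116 with unstranded counts, and -0.25 to 0.22 with a sample left out. With plain totals, Pycard at 12 h was -0.12, Aim2 with IL-13 0.0023 and Casp4 in RAW264.7 against BMDM control 0.18, which ran from -0.36 to 0.16 with a sample left out. Gsdmd with IL-4 was -0.0254 under the 10-count filter, and Nek7 with IL-4 was 0.0019 with unstranded counts. With a sample left out, IL-4 gave -0.00460 to 0.14 for Casp1, -0.12 to 0.0460 for Casp4, -0.0288 to 0.0480 for Gsdmd and -0.0381 to 0.0284 for Nek7, and IL-13 gave -0.10 to 0.0621 for Aim2, -0.0484 to 0.19 for Casp1 and -0.17 to 0.0422 for Gsdmd.

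Replicate numbers did not pair the samples: deviations of same-numbered samples had a mean correlation of 0.0016 (93 pairs), against -0.00084 for other pairs. Of the members' calls in the comparisons tested, the replicate block changed 2: against control, it added Casp1 in RAW264.7 with LPS (-0.59, adjusted p = 0.00998), and the P2rx7 difference between RAW264.7 and BMDMs lost its call (adjusted p = 0.0102). Depth limits Nlrp3 with IL-4 or IL-13 and Nlrc4 in RAW264.7, which rest on at most 11 counts per library.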

Other observations

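Genes whose condition means ran most like those of a member are given as a description over the 9 conditions, which share libraries, control and scaling. For Nlrp3 they were Marcksl1 (Pearson's r 0.994), Tnf, a cytokine of the first response to LPS (0.984), and Tlr2, a receptor of bacterial lipoproteins (0.983). For Casp4 they were Rsad2, the gene of the antiviral protein viperin (0.999), Cd69, an early activation marker (0.998), and Batf2, a transcription factor (0.994). For Gsdmd they were Lrrk2, a kinase (0.992), Tspo, a mitochondrial membrane protein (0.990), and Phf11a (0.989). For Pycard, whose pattern is set largely by its absence from RAW264.7, they were Mgst1 (0.997), Glmp (0.994) and Col5a2, a collagen (0.994). For Casp1 they were 1600014C10Rik (0.992), Gtdc1 (0.989) and Ms4a6c (0.986). For P2rx7 they were Klc4 (0.989) and Gnpda1 (0.988). Likeness was lower for Aim2, with Kpna3 (0.980), Csnk1a1 (0.978) and Txlng (0.972), for Nek7, with Acox3 (0.972), Slc44a2 (0.971) and Gm608 (0.970), and for Nlrc4, with Erlec1 (0.971) and Cdo1 (0.965).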
